A study of Mus musculus with 4 samples.

Results

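The ABC transporters are a family of membrane pumps, taken here as every gene of the deposited table whose symbol names subfamily A to G, without Abca1, Abca3 and Abcg1. There were 47 such genes among the 25124 listed, in 7 subfamilies. Of these, 27 had a mean over the 4 libraries of at least 25.8 normalised reads, which is a CPM of 1 at the mean library total, and were tested. The other 20 lay below this floor, 6 of them at 0 in every library. RNA was sequenced from airway epithelial cells sorted from the lungs of wild-type C57BL/6 mice that had all been sensitised with house dust mite (HDM), an allergen that provokes airway inflammation. The SCD1 inhibitor_HDM group (2 samples) had received an inhibitor of stearoyl-CoA desaturase 1, the enzyme that makes monounsaturated fatty acids, and the DMSO_HDM group (2 samples) had received the vehicle. No unsensitised group was analysed here, the inhibitor is not named in the labels, and neither age nor the number of animals behind a sample is given in the sources used here. Nothing says that the replicates came from separate mice, so p-values measure only the spread between these samples, which may be technical.

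An ABC transporter couples the binding and breakdown of ATP in paired nucleotide-binding domains to the movement of a substrate across a membrane. Subfamily A moves lipids. Subfamily B holds drug exporters together with transporters of mitochondria and lysosomes, which pair up to form a pump. Subfamily C holds drug and conjugate exporters, subfamily D brings fatty acids into peroxisomes, and subfamily G moves sterols and drugs. Subfamilies E and F have the nucleotide-binding domains but no membrane part and act on ribosomes. In the lung the family is known for loading surfactant lipid into storage organelles, for chloride secretion and for the export of inhaled or conjugated compounds.

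The libraries held 27013663 and 24591122 reads with the inhibitor and 26766159 and 25908728 with DMSO. Markers shared by epithelial cells, the labelled type, summed to 160721 and 169005 normalised reads with the inhibitor and 155946 and 156832 with DMSO. Markers of alveolar type 2 cells, led by Sftpc, were abundant too, at 344343 and 282964 with the inhibitor and 432901 and 489897 with DMSO. In limma, 4 of 12 alveolar type 2 and 7 of 12 club cell markers were lower with the inhibitor, as were 6 of 9 goblet cell markers, where 0.427% of all genes were. For the same lists edgeR called 0, 2 and 3 markers, and DESeq2 called 8, 6 and 6. The goblet cell markers, led by Clca1, summed to 19775 and 37790.1 with the inhibitor, against 107869 and 81738 with DMSO, and the club cell markers, led by Scgb1a1, to 521284 and 323235 against 595101 and 491002. Ciliated cell markers summed to 570554 and 590757 against 565499 and 577679, and 1 of 12 was higher. Basal cell markers summed to 923 and 3084 against 5244 and 3898 with 0 of 5 tested called by limma (4 at an unadjusted p under 0.05), and 1 of 8 alveolar type 1 markers was lower. For the ciliated, basal and alveolar type 1 lists, in either direction, edgeR called 1, 0 and 0 markers, and DESeq2 called 2, 2 and 2. Markers of other cells were present too. Endothelial markers, led by Vwf, summed to 4693 and 6472 against 4369.5 and 13152. Myeloid markers, led by Chil3, summed to 5212 and 2941 against 2056 and 5075. Of these, Chil3 alone had 2804 and 1415 against 445 and 2235, and Ptprc had 241 and 69.2 against 48.7 and 181. Stromal markers, led by Acta2, summed to 3906 and 3805 against 1626 and 3918. The neutrophil genes S100a8 and S100a9 were at 0 in every library.

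Most ABC transporters that could be tested lay a little lower with the inhibitor, and 1 gene, the conjugate exporter Abcc3, passed the test. Of the 27 tested members, 19 had a negative and 8 a positive log2 fold change, with a median of -0.25 (-0.14 without inhibitor replicate 1). Of all 13810 genes tested, 49.3% were negative and the median was 0.0056. Without the floor the lean was smaller, with 23 of 41 members negative and a median of -0.087. The median log2 value of the 27 members had an SD of 0.28 between libraries of a group, more than the shift of -0.25. For subfamilies A to F in order this SD was 0.19, 0.13, 0.37, 0.24, 0.037 and 0.14. The lean itself was not tested. In limma's fit over all genes, 1 member was lower at a Benjamini-Hochberg adjusted p under 0.05, beside 0.427% of all genes, and 0 were higher, beside 1.36% (either direction 1.79%). No member was called higher by edgeR or DESeq2 on recovered reads either. Here edgeR called 0 members, beside 0.304% of all genes, and DESeq2 called 1, beside 3.97%. DESeq2 gave no adjusted p for Abca4, Abca5, Abca13, Abcc6, Abcc8, Abcc9, Abcc12, Abcd2 and Abcd4, so it could not call them. A fit with the replicate number as a block called 2, beside 4.88%. At an unadjusted p under 0.05 there were 5 lower members (background 5.92%) and 1 higher (background 8.16%). In 11 members every inhibitor library lay below both DMSO libraries, and in 2 every one lay above, which is 40.7% and 7.41% of those tested, beside 22.2% and 22.7% of all genes (44.9% in either direction). The 11 include near ties of inhibitor replicate 2 with DMSO replicate 2. These were Abcc8 (35.7 normalised reads in each) and Abcf2 (1177 with the inhibitor, 1190 with DMSO). With 2 samples against 2, an exact permutation test of a single gene cannot give a two-sided p below 0.333, so the tests rest on limma's moderated spread.

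**Figure D1:**
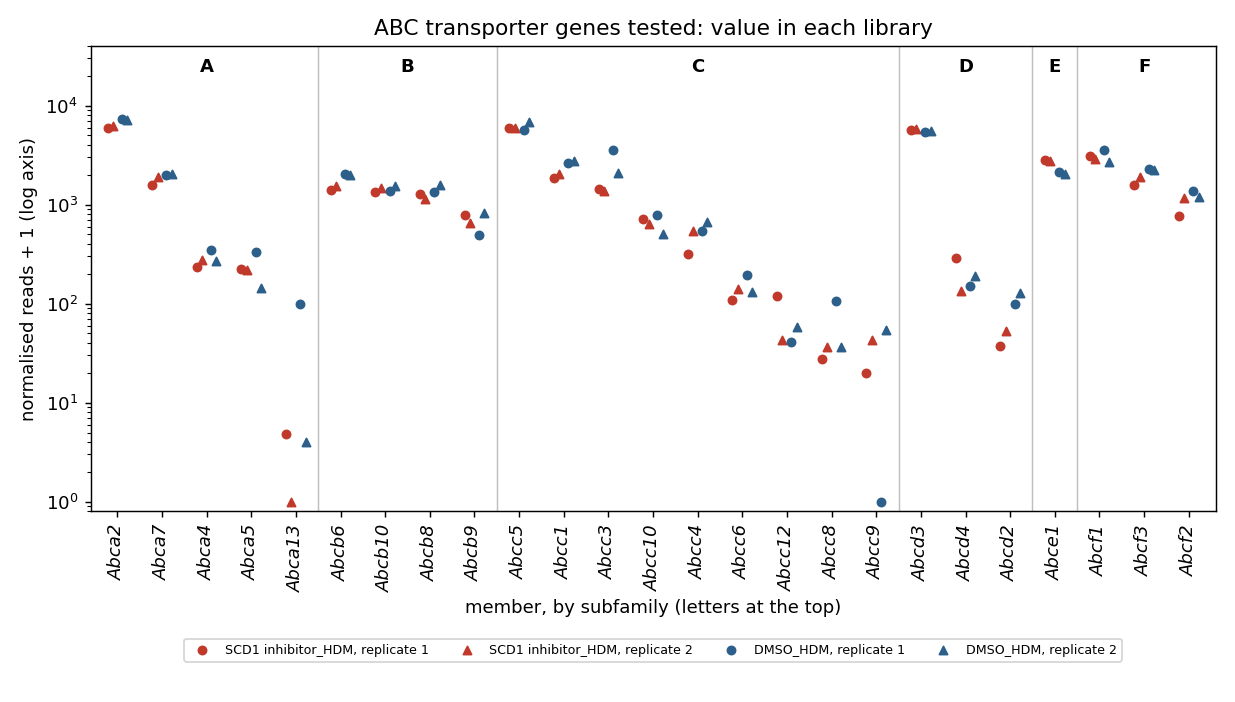
Normalised reads plus 1 (log axis) of 25 tested members in each library, by subfamily; red points are the inhibitor libraries and blue points the DMSO libraries. Abcc3 lies lower in both inhibitor libraries, Abce1 lies higher in both, and the spread between libraries of a group is widest among the low members such as Abca13 and Abcc9.

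Levels between genes were compared per kilobase of the principal transcript. Among the tested members Abcd3 stood first, at 1605 normalised reads per kilobase on average and 1538 to 1666 in the 4 libraries. Abcc5 (980.2 to 1182 per kilobase), Abcf1 (845 to 1133) and Abca2 (737 to 912) followed, and the ranges of Abcc5 and Abcf1, like those of Abcf1 and Abca2, overlapped. This order depended on the length used: per kilobase of all annotated exons, Abcd3 was still first (849) but was followed by Abca2 (796), Abcf1 (693) and Abcc5 (569.7). Abcf3 and Abce1 averaged 644 and 643 per kilobase. At the other end, Abcc9 averaged 4.61 and Abca13 1.64 per kilobase.

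Subfamily C, the largest set of exporters tested here, had 9 of its 10 members above the floor, with 6 negative and 3 positive values and a median log2 fold change of -0.32 (-0.47 to -0.13 with any 1 library left out, lowest without inhibitor replicate 2 and highest without inhibitor replicate 1). Abcc3 (chromosome 11, 94343295 to 94392997, minus strand, mm10) encodes an exporter of glucuronide and bile acid conjugates across the basolateral membrane. It had 1431 and 1363 normalised reads with the inhibitor, against 3518 and 2084 with DMSO. Both inhibitor libraries lay below both DMSO libraries, and the DMSO libraries differed from each other more than the inhibitor libraries did. Abcc3 averaged 1397 ± 48.6 with the inhibitor and 2801 ± 1014 with DMSO (SD, n = 2 each) and fell 1.92-fold (log2 fold change -0.94 ± 0.21, SE; 95% confidence interval -1.39 to -0.50; limma adjusted p = 0.0384). The call depended on single libraries: it held without DMSO replicate 2 (-1.32, limma adjusted p = 0.000160) and ended without DMSO replicate 1 (-0.57, adjusted p = 0.0583), without inhibitor replicate 1 (-0.98, adjusted p = 0.406) and without inhibitor replicate 2 (-0.91, adjusted p = 0.577). Abcc3 also missed the threshold with edgeR (adjusted p = 0.102), without a floor on low values (0.1035) and in limma without its intensity trend (0.463), and passed with DESeq2 (adjusted p = 0.00136). In such bulk samples, fewer cells of a type and less RNA per cell cannot be told apart. The goblet, alveolar type 2 and basal marker sums given above were also lower in both inhibitor libraries. So were those of alveolar type 1 markers (29979 and 30591 with the inhibitor, against 32606 and 33982.5 with DMSO). The club sum of inhibitor replicate 1 lay above that of DMSO replicate 2, though all 12 club markers had negative log2 fold changes. The part of any of these cell types in the value of Abcc3 was not tested.

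Abcc1 (chromosome 16, 14361558 to 14475737, plus strand), the multidrug resistance protein that exports glutathione conjugates and leukotriene C4, had 1857 and 2053 normalised reads with the inhibitor and 2659 and 2771 with DMSO. The groups did not overlap, and each pair was tight. Its log2 fold change was -0.47 ± 0.14 (SE; limma adjusted p = 0.132; 0.0444, past the threshold, with the replicate number as a block), between -0.54 and -0.40 with any 1 library left out. Abcc5, an exporter of cyclic nucleotides and the most abundant of the subfamily per kilobase, had 5897 and 5879 normalised reads with the inhibitor, against 5696 and 6869 with DMSO. The DMSO libraries lay on both sides of the inhibitor libraries, and the log2 fold change was -0.087 (95% confidence interval -0.35 to 0.18). Abcc4, which exports prostaglandins and cyclic nucleotides, had 316 and 543 normalised reads with the inhibitor and 540.0 and 659 with DMSO, so the groups overlapped. Inhibitor replicate 1 was the low library there, and the log2 fold change of -0.50 was -0.13 without it. Abcc10, a broad drug exporter, had a log2 fold change of 0.11 and Abcc6, whose product lets ATP out of cells, -0.32, both with overlapping groups. Without DMSO replicate 1 the value was 0.41 for Abcc10 and -0.075 for Abcc6, and that of Abcc10 turned to -0.19 when DMSO replicate 2 was left out.

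The sulfonylurea receptors Abcc8 and Abcc9, which are regulatory subunits of ATP-sensitive potassium channels and not pumps, were near the floor. Abcc8 had 26.8 and 35.7 normalised reads with the inhibitor and 104 and 35.7 with DMSO, so the closest libraries of the groups were within 1 read of each other and DMSO replicate 1 alone was high. Abcc9 had 19.1 and 42.0 with the inhibitor, against 0 and 53.5 with DMSO. A library at 0 allows up to 3 reads, which is 0.111 to 0.122 CPM across the 4 libraries and covers counting error only. Abcc12 had 119 and 42.0 with the inhibitor and 40.0 and 56.5 with DMSO, again with 1 library high. At the floor the counting error of 1 library is 19.7%, and the 95% confidence intervals of these 3 genes each spanned more than 2 log2 units. Kcnj11, a pore subunit that pairs with these receptors, had 134 and 78.7 normalised reads with the inhibitor and 41.9 and 52.5 with DMSO (log2 fold change 0.83, limma adjusted p = 0.529). The other such subunit, Kcnj8, lay below the floor, at 0 in both inhibitor libraries and at 19.5 and 50.5 in the DMSO libraries.

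**Figure D2:**
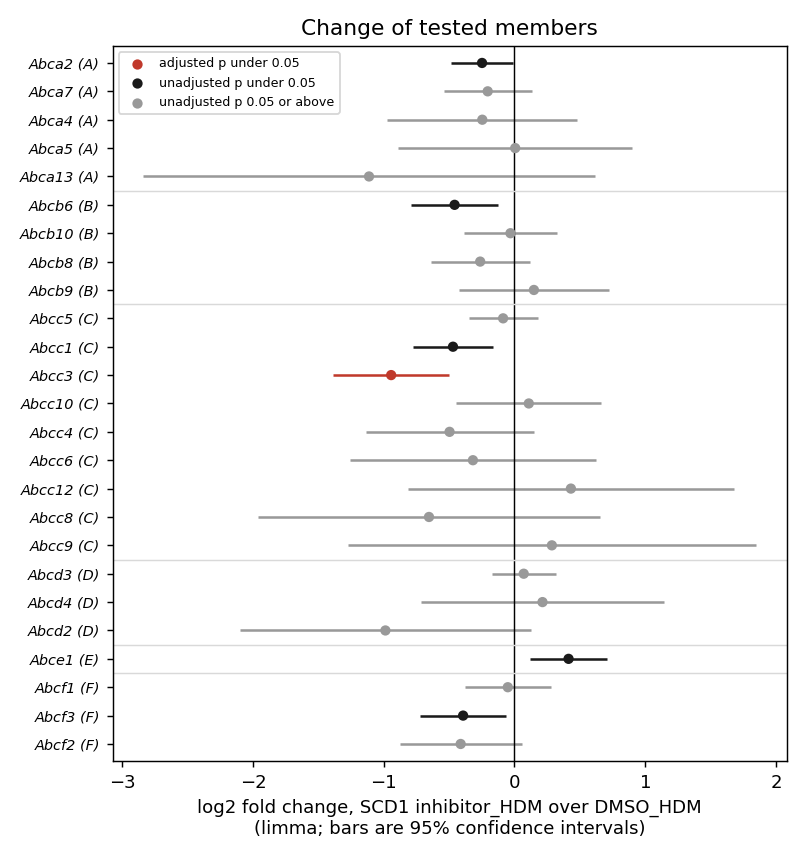
Log2 fold change of SCD1 inhibitor_HDM over DMSO_HDM for the same 25 tested members by subfamily (letter in brackets), with 95% confidence intervals from limma; red marks the member past the adjusted threshold and black those with an unadjusted p under 0.05. Abcc3 alone is red, Abce1 is the black point right of 0, and the intervals of low members such as Abca13 and Abcc9 are wide.

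In subfamily B, 5 of 10 members were tested, and 4 of the 5 log2 fold changes were negative. Those were the 4 mitochondrial members, each of which pairs with a second chain to form a pump. Abcb6 (chromosome 1, 75171717 to 75180392, minus strand), linked to porphyrin transport, had 1398 and 1544 normalised reads with the inhibitor and 2046 and 2009.8 with DMSO. The groups were apart, with the DMSO libraries close to each other, and the log2 fold change was -0.46 ± 0.15 (SE; limma adjusted p = 0.182), between -0.53 and -0.39 with any 1 library left out. A GENCODE transcript named Gm29253 on the same strand holds 90.3% of the 50-base windows of the Abcb6 transcript. Gm29253 was not a row of the table, so the reads of the pair cannot be separated. Abcb8, a mitochondrial transporter linked to iron export, had 1283 and 1134.0 normalised reads with the inhibitor and 1334 and 1580 with DMSO (log2 fold change -0.26, limma adjusted p = 0.556; -0.14 without DMSO replicate 2), again without overlap. Abcb10, which works beside heme synthesis, had 1354 and 1483 normalised reads with the inhibitor and 1365 and 1537 with DMSO, close to level (95% confidence interval of the log2 difference -0.39 to 0.33). The lysosomal peptide transporter Abcb9 had 776 and 645 with the inhibitor and 495 and 815 with DMSO.

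Subfamily A had 5 of 14 members above the floor, with 4 negative values and a median log2 fold change of -0.25 (-0.082 without DMSO replicate 1 and -0.41 without DMSO replicate 2). Abca2 (chromosome 2, 25428703 to 25448540, plus strand), a lipid transporter of late endosomes and lysosomes, took 72.9% of the normalised reads of these 14 members. That share leaves out Abca1 and Abca3, and Abca3 alone averaged 20574 normalised reads. Abca2 had 5920 and 6219 normalised reads with the inhibitor, against 7325 and 7097 with DMSO. The groups did not overlap, with a log2 fold change of -0.25 ± 0.11 (SE; limma adjusted p = 0.334). Abca7, which moves phospholipid and is known for its part in phagocytosis, had 1579 and 1916 with the inhibitor and 1971 and 2047 with DMSO (log2 fold change -0.20, limma adjusted p = 0.615; -0.068 without inhibitor replicate 1 and -0.34 without inhibitor replicate 2). Abca4, best known as a retinoid flippase of photoreceptors, had 234 and 274 with the inhibitor and 345 and 269.6 with DMSO. Abca5 had 221 and 218 with the inhibitor, between the DMSO values of 328 and 143. Abca13 passed the floor through 1 library: it had 3.82 and 0 normalised reads with the inhibitor, against 98.4 and 2.97 with DMSO. Its log2 fold change of -1.11 was -0.058 without DMSO replicate 1.

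All 4 members of subfamily D were above the floor, with 2 values on each side of 0. Abcd3, the major peroxisomal membrane transporter of branched-chain and other fatty acids, had 5661 and 5813 normalised reads with the inhibitor and 5366 and 5558 with DMSO. The inhibitor libraries were the higher ones without overlap, but the log2 fold change was 0.071 (95% confidence interval -0.17 to 0.31). Abcd2, a peroxisomal importer of very long chain fatty acids, was low, with 36.3 and 51.4 with the inhibitor and 98.4 and 126 with DMSO (log2 fold change -0.99 ± 0.52, SE; limma adjusted p = 0.424; -1.14 to -0.83 with any 1 library left out). Abcd4, which serves the release of vitamin B12 from lysosomes, had 290.5 and 134 with the inhibitor and 149 and 189 with DMSO, and inhibitor replicate 1 was the high library.

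Among the 4 soluble ATPases, Abce1, the only member of subfamily E, lay above 0 and the 3 members of subfamily F lay below it. None of them was called by limma, and the difference between the subfamilies was not tested. Abce1 (chromosome 8, 79683462 to 79711740, minus strand) encodes the factor that splits ribosomes for recycling after termination. It had 2821 and 2756 normalised reads with the inhibitor, against 2137 and 2039 with DMSO. Both inhibitor libraries were higher than both DMSO libraries, with a log2 fold change of 0.41 ± 0.14 (SE; 95% confidence interval 0.12 to 0.71; limma adjusted p = 0.173), between 0.38 and 0.45 with any 1 library left out. Abcf3 (chromosome 16, 20548577 to 20561379, plus strand), whose yeast relative Gcn20 acts in amino acid sensing, had 1558 and 1887 with the inhibitor and 2269 and 2251 with DMSO. The groups did not overlap, and the log2 fold change was -0.39 ± 0.15 (SE; limma adjusted p = 0.266; -0.26 without inhibitor replicate 1). Abcf2 had 771 and 1177 with the inhibitor, against 1368 and 1190.2 with DMSO, so inhibitor replicate 2 reached almost to the DMSO values. Its log2 fold change of -0.41 was -0.11 without inhibitor replicate 1. Abcf1, a partner of initiation factor eIF2, had 3089 and 2885 with the inhibitor and 3583 and 2671 with DMSO (log2 fold change -0.051, 95% confidence interval -0.38 to 0.28). Without DMSO replicate 1 the log2 fold change of Abcf1 turned to 0.16.

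**Figure D3:**
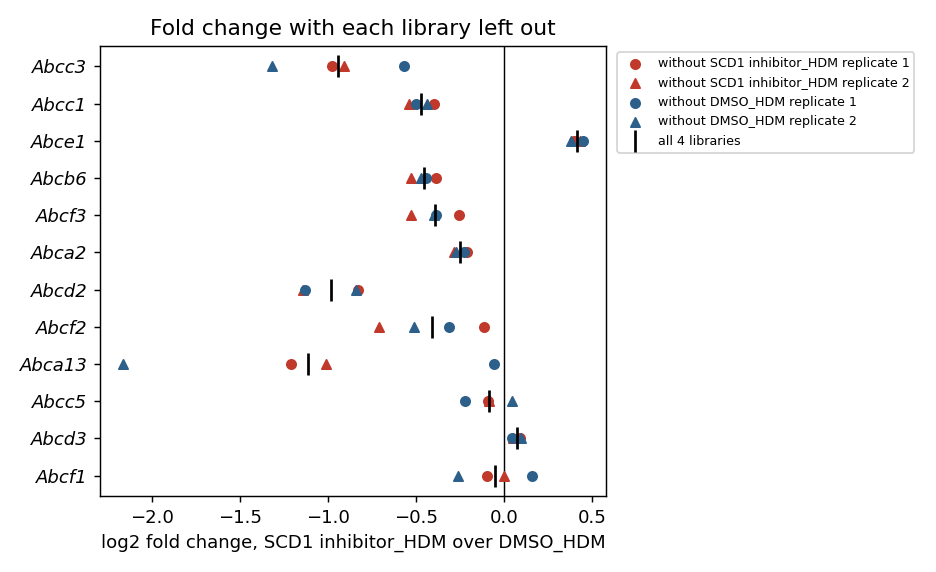
Log2 fold change of 12 members with all 4 libraries (black bars) and with each library left out, red for an inhibitor and blue for a DMSO library. Abcc1, Abce1, Abcb6 and Abca2 hardly move, Abcc3 spans -1.32 to -0.57, and Abca13 moves to near 0 without DMSO replicate 1.

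None of the 5 subfamily G members reached the floor, while Abcg1, which the rule leaves out, did. The summed level of the 5 members was 46.8 and 42.0 normalised reads with the inhibitor and 49.7 and 30.7 with DMSO. Abcg2, the drug and urate exporter known as breast cancer resistance protein, had 28.7 and 7.34 with the inhibitor and 24.4 and 0 with DMSO. Of the sterol transporters Abcg5 and Abcg8, which work as a pair, Abcg5 had 13.4 normalised reads in inhibitor replicate 1 alone and Abcg8 was at 0 in every library. Abcg3 had 34.6 in inhibitor replicate 2 and 13.9 in DMSO replicate 2, and 0 elsewhere. The multidrug pumps of subfamily B were below the floor too. Abcb1a, the P-glycoprotein gene that lay just below the floor, had 40.1 and 0 with the inhibitor and 0 and 54.5 with DMSO, and its copy Abcb1b had 6.69 and 23.1 with the inhibitor and 0 in both DMSO libraries. The 50-base windows of the Abcb1a transcript were shared with other genes at 17.0% and those of Abcb1b at 18.3%, so their reads are uncertain. P-glycoprotein is abundant in endothelium, whose marker sums are given above, and their part in these values was not tested. Just inside the floor were Abca13 (mean 26.3) and Abcc9 (28.6), and just outside it Abcb1a (23.7) and Abcg2 (15.1).

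By role, all 4 mitochondrial and all 3 peroxisomal transporters and both lysosomal ones of subfamilies B and D were tested. So were both sulfonylurea receptors and all 4 soluble ATPases. Of the lipid transporters and their relatives 5 of 18 were tested, and of the drug, conjugate and anion exporters and their relatives 7 of 14. Abca1, Abca3 and Abcg1, lipid transporters outside the symbol rule, all reached the floor and are not in these counts. Genes of the neighbouring group on chromosome 11 that holds Abca5, Abca6, Abca8a, Abca8b and Abca9 were below the floor except Abca5, and Abca14, Abca15 and Abca16, which lie side by side on chromosome 7, were at 0 in every library. The other genes at 0 in every library were Abcb5, Abcc2 and Abcg8. Some low genes had reads in 1 library only, such as Abca12, the lipid transporter of the skin barrier, with 46 reads, and Abca6 with 30, both in inhibitor replicate 2. Abcb4, the phosphatidylcholine flippase of bile, Abca17 and Abcg4 had at most 26 reads in any library, and Abcb11, the bile salt export pump, had 1 read in all.

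**Figure D4:**
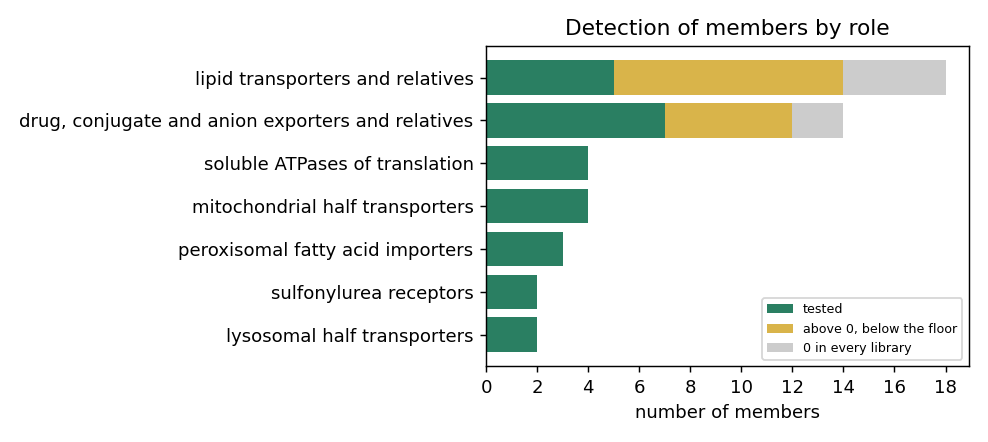
Number of members in each role that were tested (green), above 0 but below the floor (yellow) and at 0 in every library (grey). The mitochondrial, peroxisomal, lysosomal, sulfonylurea receptor and soluble ATPase bars are green throughout, while 13 of 18 lipid transporters and relatives lie below the floor. Abca1, Abca3 and Abcg1, outside the rule and above the floor, are not drawn.

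Start-site upstream sequences were compared because Abce1 lay higher while Abcb6, Abcf3 and Abca2 lay lower with the inhibitor, all 4 at an unadjusted p under 0.05. The table of RefSeq promoters (GRCm38.p6) held 36 of the 47 members and 18 of the 27 tested; Abcc3 and Abcc1 had no entry. The 250 bases before the start are printed 5′ to 3′ on the strand of the gene, with capitals for a match on either strand to the sterol regulatory element TCACNCCAC, the antioxidant response element TGACNNNGC, the CCAAT box CCAAT, the GC box GGGCGG, the E-box CACGTG or the TATA box TATAAA. Starts here are those of RefSeq, and for Abca2 and Abcf3 they differ from the GENCODE gene starts given above. Matches can overlap, and 2 matching TATA boxes that overlap and a GC box that follows them give the first run of capitals in Abcb6.
Abce1, chr8:79711741-79711990, minus strand: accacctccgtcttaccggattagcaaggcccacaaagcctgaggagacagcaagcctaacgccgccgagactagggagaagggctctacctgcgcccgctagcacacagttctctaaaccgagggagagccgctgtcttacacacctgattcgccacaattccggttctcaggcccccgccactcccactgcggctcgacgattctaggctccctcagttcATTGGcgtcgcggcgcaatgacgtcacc
Abcb6, chr1:75180393-75180642, minus strand: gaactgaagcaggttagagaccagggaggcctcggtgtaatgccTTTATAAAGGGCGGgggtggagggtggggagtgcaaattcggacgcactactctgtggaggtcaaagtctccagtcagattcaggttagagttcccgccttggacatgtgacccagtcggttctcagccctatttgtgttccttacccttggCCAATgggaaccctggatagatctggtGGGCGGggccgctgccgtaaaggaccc
Abcf3, chr16:20548353-20548602, plus strand: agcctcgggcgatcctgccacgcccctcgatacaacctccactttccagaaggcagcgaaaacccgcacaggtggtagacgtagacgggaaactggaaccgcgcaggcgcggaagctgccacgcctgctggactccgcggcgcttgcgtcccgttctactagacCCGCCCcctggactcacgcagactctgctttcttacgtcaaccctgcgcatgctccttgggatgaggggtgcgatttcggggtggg
Abca2, chr2:25428349-25428598, plus strand: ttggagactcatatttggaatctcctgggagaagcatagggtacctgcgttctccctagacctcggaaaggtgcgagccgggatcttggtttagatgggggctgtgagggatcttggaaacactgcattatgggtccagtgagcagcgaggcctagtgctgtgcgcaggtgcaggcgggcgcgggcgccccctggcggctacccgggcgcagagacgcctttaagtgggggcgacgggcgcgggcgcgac
Abce1 held a CCAAT box 28 bases before its start, read on the opposite strand, and no GC box. Abcb6 held a CCAAT box at 54 and GC boxes at 27 and 198 bases before the start, with TATA boxes at 204 and 206, Abcf3 a GC box at 86 on the opposite strand, and Abca2 none of the 6 motifs. Over the promoters of the tested members, 54.5% of 22 held a GC box and 27.3% a CCAAT box, beside 32.7% and 33.8% of all 32851 promoters of the table. The sterol regulatory element was in none of the 22 and in 1.05% of all. The antioxidant response element was in 13.6% of the 22, namely both promoters of Abcc4 and 1 of Abcc10, and in 10.2% of all. The tested members' promoters had a median GC content of 62.4%, against 52.4% over all. The 22 promoters are of genes above the floor, whereas the 32851 were not selected by expression, so these shares are not like for like. These matches describe letters and not sites.

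A further 6 genes belong to the family by structure and were outside the symbol rule. Of these, Abca3, the surfactant lipid transporter of alveolar type 2 cells, was lower (17350 and 16454 normalised reads with the inhibitor, against 24350 and 24143 with DMSO; limma adjusted p = 0.0248, and not called by edgeR), beside the alveolar type 2 markers whose sums are given above. Cftr, the chloride channel mutated in cystic fibrosis, had 399 and 410.2 with the inhibitor and 309.9 and 337 with DMSO (log2 fold change 0.30, limma adjusted p = 0.709). The peptide transporters Tap1 and Tap2 of antigen presentation had log2 fold changes of -0.35 and -0.26, the cholesterol exporter Abca1 0.16 and Abcg1 -0.017, and none of these passed.

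Genes that work beside the transporters were counted in lists by function. Among 7 tested carriers and acceptors of exported lipid, all were negative (median log2 fold change -0.36) and 2 fell in limma's test (3 in DESeq2, 0 in edgeR). Apoe, the apolipoprotein that takes up exported cholesterol, had 1081 and 1202 normalised reads with the inhibitor, against 2141 and 2129 with DMSO (log2 fold change -0.89, adjusted p = 0.0161). Clu, another lipid-carrying secreted protein, had 3712 and 2997 with the inhibitor, against 5499 and 4777 with DMSO (log2 fold change -0.62, adjusted p = 0.0423). All 8 tested organic ion uptake carriers were negative (median -0.37) and 0 passed in limma (0 in edgeR, 1 in DESeq2), with 1 at an unadjusted p under 0.05, the prostaglandin carrier Slco2a1 (-0.80, limma adjusted p = 0.106). Of 23 conjugating and glutathione genes, 17 were negative (median -0.076) and 0 passed in limma (3 at an unadjusted p under 0.05; 0 in edgeR, 1 in DESeq2), the smallest p being that of the microsomal glutathione transferase Mgst1 (-0.66, limma adjusted p = 0.0633). Of 14 regulators of transporter genes, 10 were negative (median -0.23) and 0 passed in limma (5 at an unadjusted p under 0.05; 0 in edgeR, 1 in DESeq2), among them Srebf2, the sterol-sensing transcription factor, at -0.31 (limma adjusted p = 0.188).

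The peroxisomal genes that work with subfamily D had 6 positive and 7 negative values (median -0.047), and 0 of 13 passed in limma, edgeR or DESeq2 (2 at an unadjusted p under 0.05 in limma), with Ehhadh, a peroxisomal beta oxidation enzyme, at 0.70 (adjusted p = 0.233). Of 17 tested heme and iron-sulfur cluster genes beside the mitochondrial members, 11 were negative (median -0.14) and 0 passed in limma, edgeR or DESeq2 (0 at an unadjusted p under 0.05 in limma). The smallest p there was that of the heme synthesis enzyme Ppox (0.38, limma adjusted p = 0.408). Of 10 ribosome and initiation factors beside subfamilies E and F, 6 were positive and 4 negative (median 0.13), and 0 passed in limma, edgeR or DESeq2 (3 at an unadjusted p under 0.05 in limma). Eif2s1, the alpha subunit of eIF2, had 0.52 (adjusted p = 0.255) and Gcn1, which binds the kinase that senses amino acids, -0.32 (adjusted p = 0.275).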

How the data were processed

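The authors deposited 1 table of signal values, in which read counts per gene had been divided by 1 size factor per library. The unit was read from the values: all were whole multiples of 1 step per library (100% within 0.01). The step of DMSO replicate 2 was 0.991, so close to 1 that its recovered reads are less certain. HOMER, DESeq2 and mm10 are named in the submitters' processing notes, without versions or steps; no aligner or strand setting for counting is given in these sources. Libraries were made from sorted cells with a directional kit, per the labels' protocols.

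Values were tested as log2(value + 25.8), 25.8 being a CPM of 1 at the mean library total, which understates folds of low genes. Genes with a mean of at least 25.8 were kept (13810). limma 3.58.1 in R 4.3.3 was fitted with an intensity trend and the group as its term, and adjusted over all genes at 0.05. A run on reads simulated with equal dispersion in all genes and both groups checked the code only. It gives no error rate for these data, where log2 differences had an SD of 0.45 in the inhibitor pair and 0.58 in the DMSO pair. Recovered reads were used in edgeR 4.0.16 and DESeq2 1.42.0 as alternatives. Coordinates and principal transcripts are those of GENCODE M21 (GRCm38, which is mm10), matched by symbol for all 47 members. Of the tested members, 2 (Abcc10 and Abcc9) share exon bases with another listed gene. Python 3.11.15 with pandas 2.3.3 and matplotlib 3.10.9 made the tables and figures. Full values were given for members that passed, had an unadjusted p under 0.05, or led their subfamily in level per kilobase or in size of change, and others were named for their role. Counts cover all 27 tested members, of which 2 are not reported here one by one. Members, lists, motifs and tests were chosen with earlier results of these data known.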

Additional observations from a re-analysis of the deposited data

How the results depend on the processing

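The 1 lower call among the members, Abcc3, rested on the model and on single libraries. The number of lower members was 0 without a floor on low values (Abcc3 adjusted p = 0.1035), 0 for limma without its intensity trend (4 at an unadjusted p under 0.05; Abcc3 adjusted p = 0.463), 0 with edgeR (6 at an unadjusted p under 0.05) and 0 to 1 with each library left out. The number of higher members was 0 under all 14 alternatives, with 0 or 1 at an unadjusted p under 0.05. Over all genes, 247 passed, against 64 without a floor, 0 without the trend (1423 at an unadjusted p under 0.05), 42 with edgeR, 548 with DESeq2 and 5 to 795 with each library left out. A fit that lacks a library assumes that the lone sample varies like the other group's pair. With the replicate number as a replicate block, 2 members (Abcc3 and Abcc1, adjusted p = 0.0444) and 674 genes passed. The labels do not say that a number pairs samples, and deviations of same-numbered libraries correlated at r = 0.073, so they were not treated as pairs. Among 166 values of the 12 named members, 157 kept their direction and their side of the threshold, 6 (all Abcc3) lost the call and 1 gained it. The other 2 turned: Abcc5 lay between -0.22 and 0.048 and Abcf1 between -0.26 and 0.16 with each library left out. Only Abcc3 had a call to lose, so most of the 157 merely stayed uncalled and do not measure stability. The size of change was not scored: Abca13 counts as kept, though its -1.11 was -0.058 without DMSO replicate 1. Abca13 and Abcd2 had no adjusted p in DESeq2 and were scored as uncalled there. The median over tested members lay between -0.33 and -0.14 with each library left out. The subfamily F median of -0.39 was -0.11 without inhibitor replicate 1. Pseudocount, scaling and the stricter floor ended no member's call. The 20 members below the floor were not tested in the main comparison. Without a floor 41 members were tested and 0 passed in limma (6 at an unadjusted p under 0.05). Their median was -0.087, with 23 negative.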
